A study of Homo sapiens with 7 samples.

Results

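The smooth muscle contractile genes are a group of 10 genes chosen by name, ACTA2, ACTG2, TAGLN, CNN1, CALD1, LMOD1, SMTN, MYLK, SRF and MYOCD, out of 60234 genes in the deposited expression table, and all 10 were found there. They were measured in poly-A RNA from cardiomyocytes made from WTC-11, an established human induced pluripotent stem cell line, matured for 35 days. The cultures then received 2 uM of an antisense oligonucleotide (ASO), a short strand made to base-pair with one target RNA, for 96 h. One group got a scrambled ASO (3 libraries) and the other an ASO against MYH7B (4 libraries). The comparison asks what the MYH7B ASO changes, with cell line, dose and time shared by both groups. All libraries come from 1 cell line, and no label says that the libraries of a group came from separate cultures or differentiations. A p-value here therefore sets a group difference against the spread between these libraries, which may be technical.

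In smooth muscle, actin filaments made largely of the actin encoded by ACTA2 or ACTG2 slide against smooth muscle myosin, whose heavy chain is encoded by MYH11, after myosin light chain kinase (MYLK) phosphorylates the regulatory light chain. Calponin (CNN1), transgelin (TAGLN), caldesmon (CALD1), leiomodin (LMOD1) and smoothelin (SMTN) bind those actin filaments. Serum response factor (SRF) binds a short DNA element, the CArG box, near many of these genes, and myocardin (MYOCD) or the myocardin-related factors MRTFA and MRTFB bind SRF and raise its activity. The set is not restricted to vessel walls: immature cardiomyocytes, activated fibroblasts and cells derived from the epicardium are known to express ACTA2 and TAGLN too, and MYOCD is a cardiac gene as well as a smooth muscle gene.

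The DNA around the start sites shows where SRF elements lie. RefSeq windows of 300 bases (250 before to 50 after a start, build GRCh38.p14) were matched by symbol for 8 of the 10 genes and gave 16 windows; TAGLN and MYOCD were not matched. The CArG box was searched as 10 letters, a C pair, 6 letters that are each A or T, and a G pair, which reads the same on both strands. It was found in 4 of the 16 windows, in ACTG2, MYLK, SMTN and SRF, against 1.29% of all 35116 windows. With 1 letter off allowed, 9 of the 16 windows held a match, against 18.9% of all windows. A match describes letters, not binding. The SMTN and ACTG2 starts used below lie inside their gene models, and the other SMTN windows held no exact match. The second ACTG2 stretch includes 11 bases of an annotated ACTG2 exon. The stretches below are printed 5′ to 3′ on the gene's strand, with matches in capitals, because they hold the elements of both smooth muscle actins, of MYLK, of SMTN and of SRF itself.
ACTA2, chr10:88952774-88952903, minus strand, in an intron of the ACTA2 and STAMBPL1 gene models, matches 1 letter off that begin 121 and 71 bases before the start: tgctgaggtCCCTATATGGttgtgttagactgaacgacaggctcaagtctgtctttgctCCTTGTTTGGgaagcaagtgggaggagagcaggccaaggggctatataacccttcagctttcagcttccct
ACTG2, chr2:73892888-73892917, plus strand, 110 bases before the start: gaaaaaaccaCCTTATATGGtaatattgct
ACTG2, chr2:73892925-73892954, plus strand, 73 bases before the start: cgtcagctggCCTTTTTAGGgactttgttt
MYLK, chr3:123620623-123620652, minus strand, 94 bases before a start inside the gene and within an annotated MYLK exon: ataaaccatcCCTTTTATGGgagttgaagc
SMTN, chr22:31084866-31084995, plus strand, 44 bases before the start: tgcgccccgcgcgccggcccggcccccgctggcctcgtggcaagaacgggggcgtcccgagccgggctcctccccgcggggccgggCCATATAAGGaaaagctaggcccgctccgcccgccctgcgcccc
SRF, chr6:43171139-43171268, plus strand, 30 and 10 bases before the start: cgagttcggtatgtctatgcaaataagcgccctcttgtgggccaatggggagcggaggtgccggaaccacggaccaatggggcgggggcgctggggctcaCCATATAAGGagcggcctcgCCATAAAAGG
The genes with an exact match did not share 1 direction in the comparison that follows: ACTG2 fell with the MYH7B ASO, MYLK averaged lower without being called, and SRF and SMTN averaged slightly higher and were not called. Those changes are of whole genes and do not separate the starts. The only MYLK window lies at a start inside the gene, so the start of its full gene model was not searched.

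Values are TPM, an abundance per transcript length scaled to a sum of 1000000 in each library, which keeps no record of depth; the depth is unknown, and the error given is the spread between libraries. The 6 libraries compared are scrambled ASO replicates 1 to 3 and MYH7B ASO replicates 2 to 4. The column of MYH7B ASO replicate 1 was out of register with the gene names: in the deposited order its log2 values had a median correlation across genes of 0.408 with the other libraries, and 0.955 once its 58721 values were given the sorted identifiers of GENCODE 29. The other 6 libraries had correlations of 0.959 to 0.979 with each other. Replicate 1 has as many values as GENCODE 29 has genes, 58721, while the expression table lists 60234 genes. It was therefore apparently quantified on another annotation than the other libraries, and the part of this in its TPM was not tested. Replicate 1 also stood apart in its mitochondrially encoded share, 17.2% of TPM against 27.4% to 33.6%. Its restored values are therefore given beside the results on the 10 genes and enter only a 7-library fit. The targeted RNA, MYH7B, read 23.0, 36.5 and 25.1 TPM with the scrambled ASO and 9.30, 5.65 and 6.31 TPM with the MYH7B ASO, log2 fold change -1.85 (limma, adjusted p = 0.0109), and 1.29 TPM in replicate 1. It was not called in the 7-library fit (-2.30, adjusted p = 0.0525) or without MYH7B ASO replicate 4 (adjusted p = 0.0618). Nor was it called with no filter on low values (limma adjusted p = 0.0779) or in the fits with a replicate block. Fold changes are MYH7B ASO minus scrambled ASO in log2(TPM + 1), where low genes appear to change less than they do. The word called means an adjusted p under 0.05 over the 15988 genes that averaged 1 TPM or more.

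All 10 smooth muscle genes passed that filter. With the MYH7B ASO 2 of them fell, ACTG2 and CALD1, and 0 rose. Over all genes 1.48% were called lower and 0.181% higher, and 1.66% in either direction (236 genes lower and 29 higher, or 202 and 55 with quantile normalization). With replicate 1 added, only ACTG2 of the 10 was called, lower, beside 0.967% of all genes lower, 0.107% higher and 1.07% in either direction. Of the 10 genes, 5 had an unadjusted p under 0.05, against 15.2% of all genes. In 6 genes every MYH7B ASO library of the 6 compared lay below every scrambled ASO library, and in 1, SRF, above. Over all genes such non-overlap was seen for 14.1% (lower) and 7.11% (higher). The median log2 fold change of the 10 was -0.65, beside -0.04 for all genes tested. The group was therefore split: both actins, TAGLN, CALD1 and MYLK had estimates between -0.91 and -2.02, and the other 5 genes had estimates between -0.39 and 0.28 with intervals that held 0. Fewer cells of a type and less RNA per cell cannot be told apart in these bulk libraries.

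**Figure D1:**
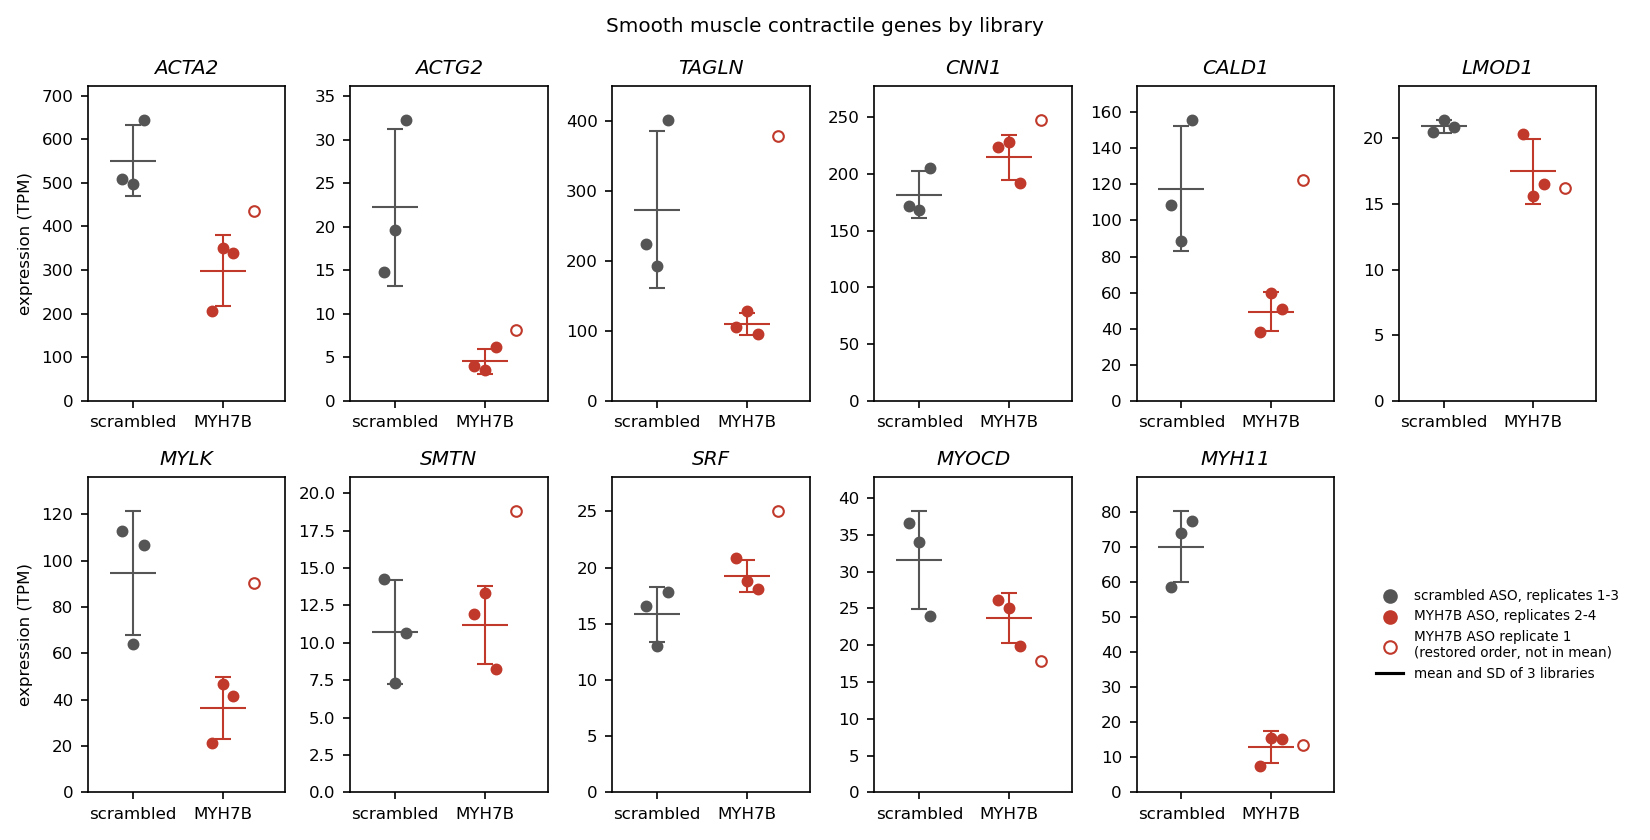
TPM (y axis, a separate linear scale from 0 for each gene) in every library for the 10 smooth muscle genes and MYH11; filled points are the 6 libraries compared, bars their mean and SD, and open points MYH7B ASO replicate 1 in restored order. TAGLN, CALD1 and MYLK in replicate 1 lie within the scrambled ASO range, while ACTG2 and MYH11 lie below it.

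ACTA2, the alpha actin of vascular smooth muscle, was the highest of the 10 in 6 of the 7 libraries, and second to CNN1 in MYH7B ASO replicate 2. It read 509, 498 and 645 TPM with the scrambled ASO and 206, 351 and 339 TPM with the MYH7B ASO. The groups did not overlap, the lowest library being MYH7B ASO replicate 2. The means were 551 ± 81.6 and 299 ± 80.6 (SD, n = 3 each), log2 fold change -0.91 (SE 0.22, 95% interval -1.40 to -0.41), and the difference was not called (adjusted p = 0.0910). Replicate 1 read 436 TPM, above the other MYH7B ASO libraries and below the scrambled ones, and the 7-library estimate was -0.76 (adjusted p = 0.218).

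ACTG2, the gamma actin typical of gut and bladder muscle, showed the largest change of the 10. Its levels were 14.9, 19.6 and 32.3 TPM with the scrambled ASO and 3.99, 3.49 and 6.21 TPM with the MYH7B ASO. Each scrambled ASO library was above each MYH7B ASO library, with replicate 3 the highest. The means were 22.2 ± 9.01 and 4.56 ± 1.45 (SD, n = 3 each), log2 fold change -2.02 (SE 0.30, 95% interval -2.71 to -1.34, adjusted p = 0.0173), the 51st lowest estimate of the 15988. Replicate 1, at 8.16 TPM, was also below all scrambled libraries, and with it the estimate was -1.84 (adjusted p = 0.0349). Without scrambled ASO replicate 2 or MYH7B ASO replicate 2, 3 or 4 the estimate stayed below 0 but was not called (adjusted p = 0.0520, 0.0757, 0.0630 and 0.0514). The fall of ACTG2 therefore held in both library sets but was close to the threshold.

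Sequence shared among actin genes could split reads between them. Of the 1747 different 31-base words of the annotated ACTA2 transcripts, 0.687% occur in another of the 6 actin genes, and of 2766 in ACTG2, 0.759%; ACTA2 and ACTG2 share 0. The striated muscle actins fell as well. ACTA1, the skeletal alpha actin, read 21.5, 34.4 and 29.0 TPM against 10.7, 10.4 and 9.87 TPM, log2 fold change -1.35 (adjusted p = 0.0156). ACTC1, the cardiac alpha actin, read 3583, 3629 and 3730 TPM against 2185, 2335 and 2403 TPM, log2 fold change -0.66 (adjusted p = 0.0209). With replicate 1, at 3.50 TPM for ACTA1 and 734 TPM for ACTC1, neither was called (adjusted p = 0.0621 and 0.261). When 1 library was left out, ACTA1 was called only without scrambled ASO replicate 1 or 2 (adjusted p = 0.0212 and 0.0466, otherwise 0.0558 to 0.0833), and ACTC1 was called in 0 of 6 fits (adjusted p = 0.0547 to 0.103). The cytoplasmic actins ACTB and ACTG1 had estimates of -0.06 and 0.15 and were not called (adjusted p = 0.942 and 0.655); the sign for ACTB turned in 5 of the alternatives tried. In TPM, ACTC1 was the most abundant of the 6 actins in each of the 6 libraries compared, and ACTA2 exceeded ACTA1 in all 7.

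TAGLN, which encodes transgelin, an actin-bundling protein, read 225, 193 and 402 TPM with the scrambled ASO. It read 106, 128 and 95.8 TPM with the MYH7B ASO. The groups did not overlap, but scrambled ASO replicate 3 was far above the other scrambled libraries (coefficient of variation 41.2%). The means were 273 ± 113 and 110 ± 16.4 (SD, n = 3 each), log2 fold change -1.24 (SE 0.26, 95% interval -1.84 to -0.64), not called (adjusted p = 0.0649). Replicate 1, at 378 TPM, fell within the scrambled range, and the 7-library estimate was -0.80 (adjusted p = 0.480). Without scrambled ASO replicate 3 the 6-library estimate was -0.93 (adjusted p = 0.0627).

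CALD1, which encodes caldesmon, the actin-bound brake on myosin, read 108, 88.8 and 156 TPM with the scrambled ASO. With the MYH7B ASO it read 38.0, 59.5 and 50.8 TPM, all below the scrambled libraries. The means were 118 ± 34.4 and 49.5 ± 10.8 (SD, n = 3 each), log2 fold change -1.22 (SE 0.24, 95% interval -1.76 to -0.67, adjusted p = 0.0484). That call sat at the threshold: without scrambled ASO replicate 1, 2 or 3 the adjusted p was 0.125, 0.0547 or 0.0960, and without MYH7B ASO replicate 2, 3 or 4 it was 0.149, 0.0763 or 0.171. Replicate 1 read 122 TPM, within the scrambled range, and with it the estimate was -0.89 (adjusted p = 0.332).

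CNN1, which encodes calponin, the filament-bound inhibitor of myosin's ATPase, did not share that direction. It read 172, 168 and 205 TPM with the scrambled ASO and 224, 228 and 192 TPM with the MYH7B ASO. The groups overlapped. The means were 182 ± 20.5 and 215 ± 19.7 (SD, n = 3 each), log2 fold change 0.24 (SE 0.14, 95% interval -0.07 to 0.55, adjusted p = 0.454), and replicate 1 was higher still at 248 TPM. The lower end of that interval, -0.07, lies above the estimates for ACTA2 and TAGLN; the difference between the genes was not tested.

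LMOD1, which encodes the smooth muscle leiomodin that seeds actin filaments, varied little. Its levels were 20.5, 21.4 and 20.9 TPM against 20.3, 15.6 and 16.5 TPM, with MYH7B ASO replicate 2 just below the scrambled range. The log2 fold change was -0.25 (95% interval -0.61 to 0.10, adjusted p = 0.494), and replicate 1 read 16.2 TPM. SMTN, which encodes smoothelin, a protein of differentiated contractile cells, was the lowest of the 10 on average with the scrambled ASO. It read 14.3, 7.30 and 10.7 TPM against 11.9, 13.3 and 8.27 TPM, fully overlapping, log2 fold change 0.07 (95% interval -0.54 to 0.68, adjusted p = 0.929), and 18.8 TPM in replicate 1. The sign for SMTN turned in 2 alternatives, and it was the only 1 of the 10 genes whose sign did.

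MYLK encodes the kinase that starts smooth muscle contraction and, from a start inside the gene, is known to give a shorter protein, telokin; the gene-level value does not separate them. It read 113, 64.2 and 107 TPM with the scrambled ASO and 21.3, 46.6 and 41.7 TPM with the MYH7B ASO. The groups did not overlap, and the lowest value was again in MYH7B ASO replicate 2. The means were 94.7 ± 26.6 and 36.5 ± 13.4 (SD, n = 3 each), log2 fold change -1.38 (SE 0.32, 95% interval -2.11 to -0.65), not called (adjusted p = 0.0845). Replicate 1 read 90.2 TPM, within the scrambled range, and the 7-library estimate was -1.04 (adjusted p = 0.320).

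The transcription factors above these genes were not called. SRF read 16.6, 13.1 and 17.8 TPM with the scrambled ASO and 20.8, 18.8 and 18.1 TPM with the MYH7B ASO, slightly higher with no overlap. Its log2 fold change was 0.28 (95% interval -0.11 to 0.66, adjusted p = 0.493), and replicate 1 read 25.0 TPM. MYOCD read 36.6, 34.1 and 24.0 TPM against 26.1, 25.1 and 19.8 TPM, overlapping groups. Its log2 fold change was -0.39 (95% interval -0.84 to 0.07, adjusted p = 0.410), and replicate 1 had the lowest level of all libraries, 17.9 TPM. RNA levels of these factors do not report their activity.

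**Figure D2:**
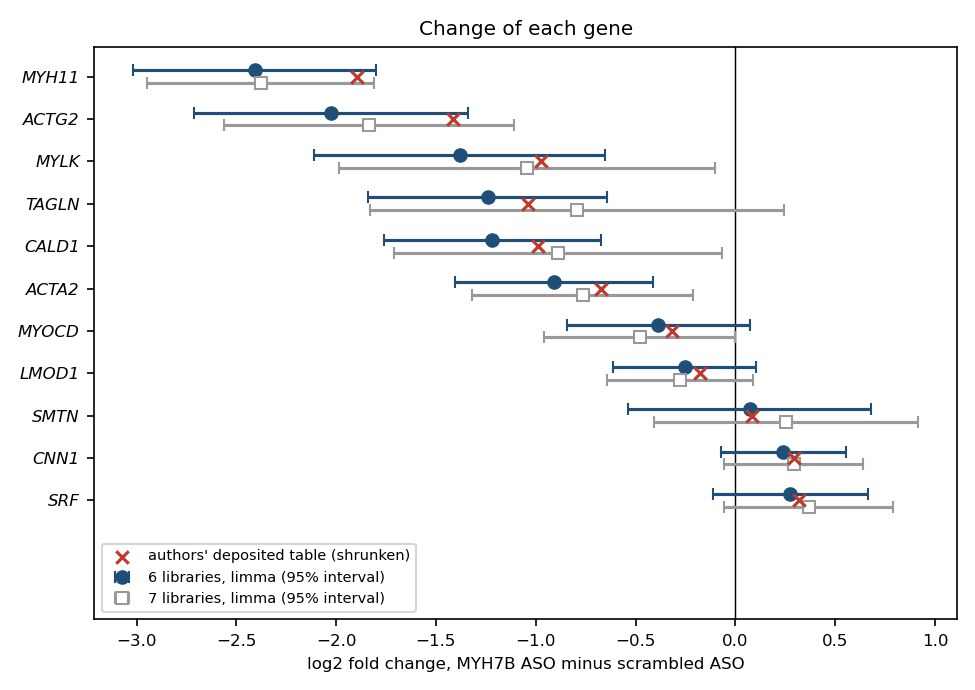
Log2 fold change (x axis, MYH7B ASO minus scrambled ASO) of each smooth muscle gene and MYH11; circles are the 6-library limma estimates and squares the 7-library ones, with 95% intervals, and crosses are the shrunken values of the authors' deposited table. Estimates run from -2.41 for MYH11 and -2.02 for ACTG2 to 0.28 for SRF, and the 7-library intervals of TAGLN, MYLK and CALD1 reach nearer to or past 0.

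In the authors' deposited table, whose log2 fold changes are shrunken and whose set of libraries is not given in the sources used here, 5 of the 10 genes were lower at an adjusted p under 0.05 and 0 were higher. Of all genes with an adjusted p in the authors' deposited table, 5.69% were lower and 3.02% higher at that threshold. The 5 were ACTG2 (-1.42, adjusted p = 3.06e-07), TAGLN (-1.04, adjusted p = 1.26e-06), CALD1 (-0.99, adjusted p = 3.78e-06), MYLK (-0.97, adjusted p = 2.90e-04) and ACTA2 (-0.67, adjusted p = 0.00463) in the authors' deposited table. The authors' deposited table gave CNN1 as 0.29 (adjusted p = 0.108), SRF as 0.32 (adjusted p = 0.176), MYOCD as -0.32 (adjusted p = 0.297), LMOD1 as -0.18 (adjusted p = 0.543) and SMTN as 0.08 (adjusted p = 0.878). These values come from the same series of libraries and are not independent of the limma fit.

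Because TPM is per length, levels can be ordered between genes. By scrambled ASO mean TPM the order was ACTA2, TAGLN, CNN1, CALD1, MYLK, MYOCD, ACTG2, LMOD1, SRF and SMTN. Neighbours whose scrambled ASO ranges overlapped were TAGLN and CNN1, CALD1 and MYLK, MYOCD and ACTG2, ACTG2 and LMOD1, and SRF and SMTN. Ranges ignore that both genes were read in the same libraries. Within scrambled ASO libraries, CALD1 stood above MYLK in 2 of 3, MYOCD above ACTG2 in 2 and ACTG2 above LMOD1 in 1. SRF stood above SMTN in 3 of 3 scrambled ASO and 3 of 3 compared MYH7B ASO libraries. TAGLN stood above CNN1 in 3 of 3 scrambled ASO libraries and in 0 of 3 of the compared MYH7B ASO libraries. The summed TPM of the 10 genes was 1319 ± 268 with the scrambled ASO and 786 ± 106 with the MYH7B ASO (SD, n = 3 each), a ratio of 0.595, and 1360 in replicate 1. ACTA2 made up 42.1% ± 2.66 and 37.6% ± 6.53 of that sum, and 32.0% in replicate 1.

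Ratios within a library compare 2 genes without the scale of the library. The CNN1 to TAGLN ratio was 0.765, 0.870 and 0.511 with the scrambled ASO and 2.11, 1.78 and 2.00 with the MYH7B ASO, a mean 2.75 times higher with no overlap. In replicate 1 it was 0.655, inside the scrambled range, so this separation was seen in 3 of the 4 MYH7B ASO libraries. The CNN1 to ACTA2 ratio was 0.338, 0.337 and 0.318 against 1.09, 0.650 and 0.566, and 0.568 in replicate 1, so here all 4 MYH7B ASO libraries were higher. The ACTG2 to ACTA2 ratio was 0.0292, 0.0393 and 0.0501 against 0.0194, 0.00995 and 0.0183, and 0.0187 in replicate 1, lower in all 4. The CALD1 to TAGLN ratio overlapped between the groups, 0.443 ± 0.0496 against 0.451 ± 0.0868 (SD, n = 3 each), and was lower in replicate 1, at 0.324. The ratios were read after the gene values and were not tested. An exact permutation of 3 libraries against 3 cannot give a p below 0.1. Of the other ratios computed, TAGLN to ACTA2, MYLK to ACTA2 and ACTA2 to ACTC1 overlapped between the 6 libraries compared. MYOCD to SRF, MYH11 to ACTA2 and LMOD1 to CNN1 were lower with the MYH7B ASO without overlap. For MYOCD to SRF the gap was narrow, 1.336 in MYH7B ASO replicate 3 against 1.346 in scrambled ASO replicate 3.

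**Figure D3:**
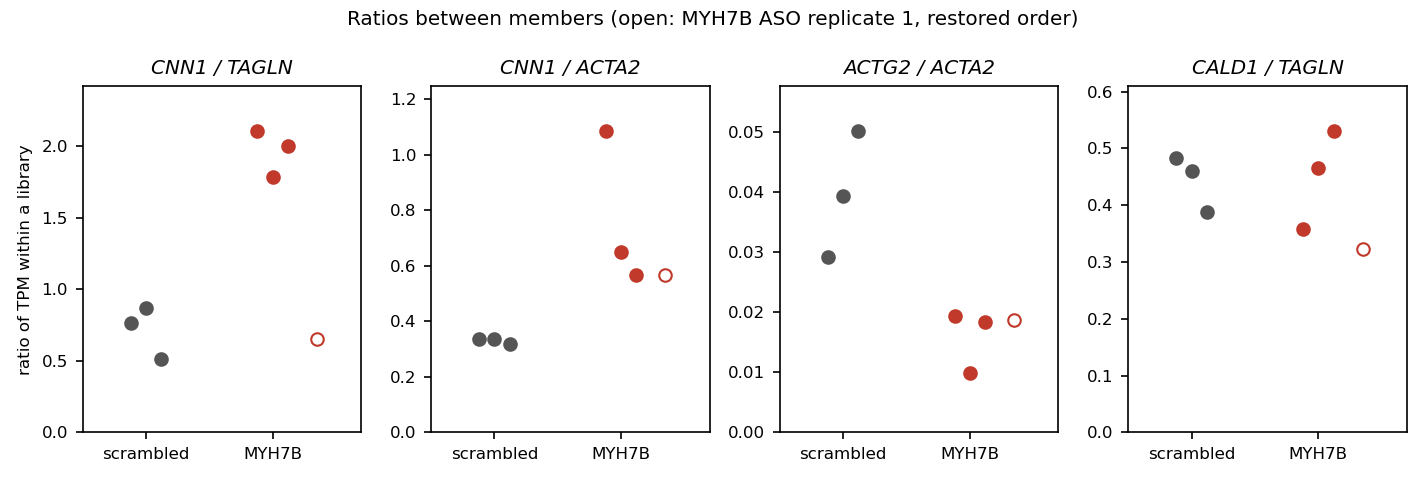
Ratios of TPM within each library (y axis, linear from 0) for 4 pairs of smooth muscle genes; grey points are scrambled ASO libraries, filled red points MYH7B ASO replicates 2 to 4, open points replicate 1. CNN1 to TAGLN runs from 0.511 to 0.870 with the scrambled ASO and from 1.78 to 2.11 in the filled MYH7B ASO points, while CALD1 to TAGLN overlaps.

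Other genes linked to smooth muscle were read from a list of 34. It held contractile and cytoskeletal genes and also an integrin subunit, channel subunits and a signalling kinase, and 33 were tested. Of these, 5 fell, 0 rose and 28 were not called, with a median log2 fold change of -0.28. Over all genes 1.48% were called lower and 0.181% higher. An unadjusted p under 0.05 was seen in 14, against 15.2% of all genes. With no overlap between the groups, 18 were lower and 0 higher, against 14.1% and 7.11% of all genes. MYH11, the smooth muscle myosin heavy chain, had the largest estimate in log2(TPM + 1), although with a pseudocount of 0.1 ITGA8 passed it (-2.55 against -2.50). MYH11 read 58.6, 74.2 and 77.6 TPM with the scrambled ASO and 7.64, 15.6 and 15.4 TPM with the MYH7B ASO, log2 fold change -2.41 (SE 0.27, 95% interval -3.02 to -1.80, adjusted p = 0.00599). Its groups were far apart, replicate 1 matched its group at 13.4 TPM, and it was called without each of the 6 libraries in turn (adjusted p = 0.0132 to 0.0291). MYH11 was not called with no filter on low values (limma adjusted p = 0.0556) or in the fits with a replicate block. The MYH11 to ACTA2 ratio was 0.128 ± 0.0182 against 0.0423 ± 0.00453 (SD, n = 3 each), and 0.0308 in replicate 1. The other genes that fell were ITGA8, an integrin subunit of contractile mesenchymal cells (log2 fold change -1.78, adjusted p = 0.0297), PRKG1, the cyclic GMP-dependent kinase that relaxes smooth muscle (-1.44, adjusted p = 0.0103), KCNMA1, a calcium-activated potassium channel (-1.40, adjusted p = 0.0340), and CSRP1, a LIM protein of the actin cytoskeleton (-1.11, adjusted p = 0.0162). With replicate 1 in the fit, ITGA8 (adjusted p = 0.0321) and PRKG1 (adjusted p = 0.00956) were called and KCNMA1 (adjusted p = 0.237) and CSRP1 (adjusted p = 0.185) were not. With 1 of the 6 libraries left out at a time, PRKG1 lost its call only without MYH7B ASO replicate 4 (adjusted p = 0.0554), CSRP1 kept it only without scrambled ASO replicate 2 or MYH7B ASO replicate 3 (adjusted p = 0.0395 and 0.0300), and ITGA8 (adjusted p = 0.0553 to 0.106) and KCNMA1 (adjusted p = 0.0839 to 0.107) lost it in each of the 6 fits.

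The list also held genes with small estimates that were not called. MYL9, the regulatory light chain that MYLK phosphorylates, averaged 535 ± 159 TPM with the scrambled ASO and 451 ± 126 TPM with the MYH7B ASO (SD, n = 3 each; adjusted p = 0.686). CNN2, a non-muscle calponin, averaged 97.6 ± 14.9 and 99.3 ± 10.1 TPM (adjusted p = 0.949), and PPP1R12A, the targeting subunit of the phosphatase that reverses MYLK's action, 31.6 ± 2.25 and 27.0 ± 0.260 TPM (adjusted p = 0.494). These 3 were chosen after their values were seen and do not stand for the list.

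Regulators of SRF, MRTFs and smooth muscle fate made a list of 33, of which 32 were tested. Of those, 2 fell and 0 rose, beside 1.48% of all genes lower and 0.181% higher, and the median log2 fold change was -0.17. PRRX1, a homeobox factor of mesenchymal cells, read 21.9, 20.8 and 23.2 TPM against 8.16, 10.1 and 8.90 TPM, log2 fold change -1.20 (adjusted p = 0.0110). Of the fits that left out 1 library, PRRX1 lost its call only in the one without MYH7B ASO replicate 4 (adjusted p = 0.0618), and in the 7-library fit it was called (adjusted p = 0.0112). The myocardin-related factors, named for their role, were not called: MRTFA had an estimate of 0.18 (adjusted p = 0.819) and MRTFB of -0.31 (adjusted p = 0.494).

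A list of 34 genes known as SRF targets shares genes with the lists above, and 32 were tested. Beside 1.48% of all genes called lower and 0.181% higher, 4 of them were lower and 0 higher, with a median of -0.16. The 4 were ANKRD1, a stress-responsive protein of the sarcomere (log2 fold change -1.72, adjusted p = 0.0251), ACTA1, CSRP1 and ACTC1. ANKRD1 read 97.3, 56.4 and 116 TPM against 20.3, 32.4 and 25.1 TPM, with 27.9 TPM in replicate 1, and of the fits that left out 1 library it was called only without scrambled ASO replicate 2 or MYH7B ASO replicate 3 (adjusted p = 0.0159 and 0.0434, otherwise 0.0667 to 0.119). The immediate early targets were not called: FOS had a log2 fold change of 0.47 (adjusted p = 0.298) and EGR1 of 0.31 (adjusted p = 0.728), both chosen after their values were seen. CCN2, another early target also chosen after its values were seen, averaged lower and was not called (-0.91, adjusted p = 0.219).

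**Figure D4:**
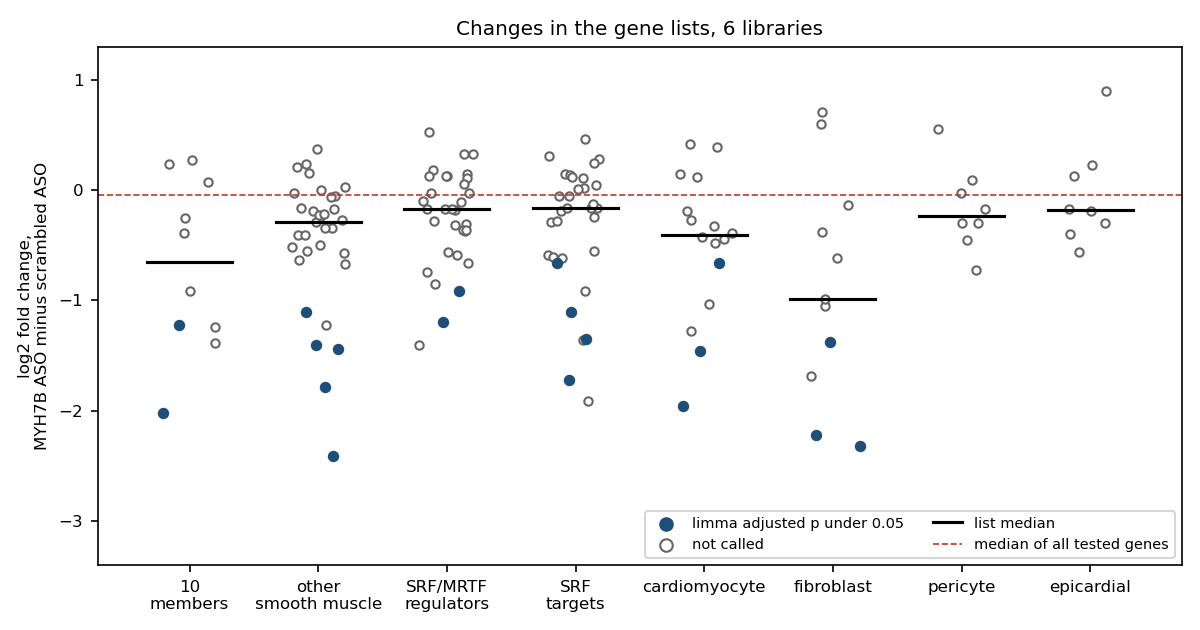
Log2 fold change (y axis) of every tested gene in 8 lists over 6 libraries; filled points are called by limma, bars are list medians and the dashed line is the median of all genes tested. Medians run from -0.98 (fibroblast) and -0.65 (the 10 smooth muscle genes) to -0.16 (SRF targets), and no called point lies above 0.

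The libraries were checked for the cells that could carry these transcripts. Cardiomyocyte markers dominated: 16 genes summed to 16477 to 17839 TPM with the scrambled ASO and 12671 to 15473 TPM with the MYH7B ASO. Of the 16, 3 fell (MYL2, MYL4 and ACTC1), beside 1.48% of all genes called lower. Fibroblast markers summed to 3547, 3595 and 6344 TPM against 1928, 2311 and 1525 TPM. Of 11 tested, 3 fell, beside the same 1.48% of all genes: FN1, the fibronectin gene (log2 fold change -2.32, adjusted p = 0.00609), LUM (-2.22, adjusted p = 0.0489) and COL1A2 (-1.38, adjusted p = 0.0343). FN1 was called without each library in turn, and LUM and COL1A2 only without scrambled ASO replicate 3 (adjusted p = 0.0217 and 0.0458, otherwise 0.0628 to 0.191 and 0.0552 to 0.157). With replicate 1 in the fit FN1 was called (adjusted p = 0.0352), and LUM (adjusted p = 0.391) and COL1A2 (adjusted p = 0.207) were not. FN1 was not called with no filter on low values or in the fits with a replicate block. The fibroblast list did not move as one, since PDGFRA (0.60, adjusted p = 0.152) and TCF21 (0.71, adjusted p = 0.168) averaged higher with groups that did not overlap, and DPT was listed at 0 in every library of the 6. Scrambled ASO replicate 3 had the highest fibroblast sum and was also the highest scrambled library for 6 of the 10 smooth muscle genes. In replicate 1 the fibroblast sum was 1.01 times the scrambled mean and the sum of the 10 smooth muscle genes 1.03 times, while in the other MYH7B ASO libraries their means were 0.427 and 0.595 times. Replicate 1 also differed in other lists: its cardiomyocyte sum was 0.575 times the scrambled mean, its pericyte sum 1.71 times and its epicardial sum 1.31 times. The means of the other MYH7B ASO libraries were 0.792, 0.997 and 1.07 times. The part of fibroblast-like RNA in the smooth muscle values was not tested.

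Pericyte markers summed to 156 to 187 TPM against 154 to 180 TPM, with 0 of 8 tested called. The 2 not tested, HIGD1B and COX4I2, averaged below 1 TPM in both groups. RGS5 averaged 56.4 and 46.2 TPM in overlapping groups. PDGFRB (20.9 and 12.4 TPM) and CSPG4 were lower without overlap, and NDUFA4L2 (44.5 and 66.8 TPM) was higher without overlap. Over all genes such non-overlap was seen for 14.1% (lower) and 7.11% (higher). Epicardial markers were present, among them ITLN1 at 716 ± 119 and 836 ± 100 TPM and WT1 at 43.2 ± 14.8 and 45.5 ± 3.62 TPM (SD, n = 3 each). Of the 8 genes 3, these among them, averaged higher with the MYH7B ASO and 5 lower, and 0 were called. They summed to 965 to 1264 TPM against 982 to 1314 TPM, of which ITLN1 made up 65.5% to 74.3%; without ITLN1 the sums were 332 to 412 TPM against 253 to 385 TPM. Endothelial markers summed to 18.7 to 23.0 TPM against 12.1 to 18.5 TPM, with 7 of 9, PECAM1, CDH5 and VWF among them, under the filter of 1 TPM. Pericyte and epicardial sums therefore overlapped between the groups. The sums of the 10 smooth muscle genes and of the cardiomyocyte, fibroblast and endothelial lists did not, and each was lower with the MYH7B ASO. The part of these cell types in the result was not tested.

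**Figure D5:**
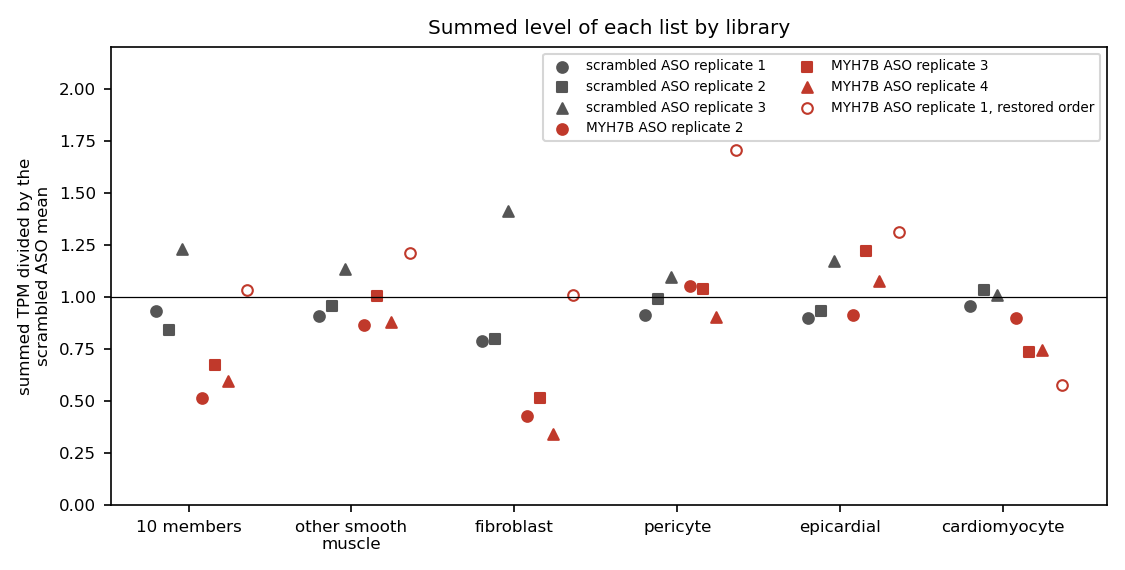
Summed TPM of 6 lists in each library, divided by the mean of the 3 scrambled ASO libraries (y axis, linear from 0); grey and red symbols mark scrambled and MYH7B ASO libraries, the open circle replicate 1. The sums of the 10 smooth muscle genes, the fibroblast list and the cardiomyocyte list lie below all scrambled libraries in MYH7B ASO replicates 2 to 4. In replicate 1 they lie at 1.03, 1.01 and 0.575.

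The genes whose profile was most like the mean of ACTA2, TAGLN and CNN1 over the 6 libraries, among 10376 genes averaging 5 TPM or more, were RECK (Pearson r = 0.999), CAPN2 (0.998), TPM2 (0.996), EHD2 (0.995) and SPARC (0.995). The libraries share groups and a high scrambled ASO replicate 3, and 380 genes had an r above 0.9, so these values are a description. CNN1 averaged higher with the MYH7B ASO (log2 fold change 0.24), while ACTA2 (-0.91) and TAGLN (-1.24) averaged lower. The mean profile therefore does not stand for CNN1. TPM2, the beta tropomyosin, read 307, 272 and 403 TPM against 199, 243 and 218 TPM, and SPARC, a matrix protein, 1552, 1321 and 2816 TPM against 671, 1179 and 786 TPM. Neither was called (adjusted p = 0.166 and 0.143), and nor were the other 3 (adjusted p = 0.117 to 0.175).

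On GENCODE 29 (GRCh38) ACTA2 lies on the minus strand of chromosome 10, 88935074 to 88991339, and overlaps the antisense genes STAMBPL1, ACTA2-AS1 and FAS. TAGLN, on chromosome 11 at 117199321 to 117204782, overlaps PCSK7, MYLK, on chromosome 3 at 123610049 to 123884331, overlaps MYLK-AS1, and MYH11, on chromosome 16 at 15703172 to 15857033, overlaps NDE1. Whether the counting used strand is not given in the sources used here. ACTA2-AS1 averaged 3.14 and 1.40 TPM in the scrambled and MYH7B ASO groups, MYLK-AS1 4.10 and 2.61 TPM, PCSK7 10.7 and 10.4 TPM, and NDE1 13.9 and 14.9 TPM. The partners averaged below ACTA2, MYLK and TAGLN in both groups, but NDE1 averaged above MYH11 (12.9 TPM) with the MYH7B ASO; the part of shared reads in that level was not tested. CNN1 (chromosome 19, 11538717 to 11550323), CALD1 (chromosome 7, 134744252 to 134970728), SRF (chromosome 6, 43171299 to 43181507) and ACTG2 (chromosome 2, 73892314 to 73919865) overlap no other annotated gene.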

How the data were processed

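The authors deposited 1 expression table in TPM for all 7 libraries and 1 comparison table. Per the file headers, the deposited comparison table holds a mean normalized count (a signal over the libraries compared), log2 fold changes (shrunken, by the table's name) with standard errors, a test score that was not used here, and raw and adjusted p-values. The submitters' processing notes name the build GRCh38.p13 and the authors' use of DESeq2; aligner and counter are not given in the sources used here. TPM keeps no depth, so precision comes from replicate spread alone.

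From the deposited TPM, log2(TPM + 1) was tested with limma 3.58.1 in R 4.3.3 (lmFit, eBayes with an intensity trend, no covariate) over 6 libraries, for genes averaging 1 TPM or more, with Benjamini-Hochberg adjustment over all genes. Intervals are limma's at 95%. A gene was called at an adjusted p under 0.05. The script was tested on simulated data. MYH7B ASO replicate 1, with 58721 values and 1513 empty positions, was given the sorted GENCODE 29 identifiers, a choice made on correlations over all genes, and entered only the 7-library fit. Groups and replicates come from the labels. Tables were made in Python 3.11.15 (pandas 2.3.3; numpy 2.4.6) and plots with matplotlib 3.10.9.

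Named genes were the 10 members, MYH7B, MYH11, the sister actins, up to 6 called genes of each list, and the 5 genes most alike in profile; others are marked where they appear, and 1 called gene of the SRF regulator list is not reported here. The members and lists were chosen with earlier results of these data known. Endoderm, pluripotency and skeletal muscle lists were read too: of their 2, 4 and 1 tested genes 0 were called. Promoter sequences are from RefSeq (GRCh38.p14). Alternatives covered pseudocounts, filters, scaling, the variance trend, replicate blocks and left-out libraries.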

Additional observations from a re-analysis of the deposited data

Results flagged for a closer look

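TAGLN in MYH7B ASO replicate 1, in restored order, read 378 TPM, while the other 3 MYH7B ASO libraries lay between 95.8 and 128 TPM. The gap to the nearest library, divided by the range of the 4, was above Dixon's 95% critical value for 4 samples. The 10 smooth muscle genes, MYH11 and MYH7B were examined this way, 12 groups of 4 in all, and chance alone flags about 1 in 20 such groups. Replicate 1 was apparently quantified on another annotation than the other libraries, and the part of this in the gap was not tested.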

How the results depend on the processing

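Against 265 genes called over 6 libraries, 2 of them among the 10 smooth muscle genes, the 7-library fit called 170 genes (1 of the 10, ACTG2), no filter on low values 40 (0 of the 10), and no intensity trend 150 (0 of the 10). Leaving out each library in turn gave 53 to 149 genes and 0 to 1 of the 10. A pseudocount of 5 left 1 of the 10 and a minimum mean of 5 TPM gave 4 (TAGLN, MYLK, CALD1 and ACTG2), while median-ratio rescaling gave 2 (TAGLN and ACTG2) and quantile normalization and removal of mitochondrially encoded genes 3 each (TAGLN, CALD1 and ACTG2). Genes called higher rose from 29 to 56 and 55 with median-ratio and quantile scaling. ACTA2 was called in 0 of 17 alternatives, and 9 of the 10 genes kept their sign in all 17; SMTN did not.

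The replicate block could use only 2 shared numbers. Blocked by title number (residual correlations of same-numbered libraries 0.0759 and 0.110) or by description number (-0.0729 and -0.0387), limma called 0 genes and 0 of the 10; 1718 and 1096 genes had an unadjusted p below the same 0.05. No label ties same-numbered libraries together. TPM keeps no depth, so the levels of low genes such as ACTG2 have no counting error attached.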
